A study of Mus musculus with 16 samples.

Results

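ATP-sensitive potassium (KATP) channels couple the metabolic state of a cell to its membrane potential: they open when ATP falls and ADP rises, and the potassium current then holds the membrane near rest. Each channel is built from pore subunits of the inward rectifier family, encoded by *Kcnj8* (Kir6.1) or *Kcnj11* (Kir6.2), and from regulatory sulfonylurea receptors of the ABC transporter family, encoded by *Abcc8* (SUR1) or *Abcc9* (SUR2, with the splice forms SUR2A and SUR2B). The receptors bind nucleotides, sulfonylureas and channel openers. SUR1 is best known from pancreatic beta cells and is also part of mouse atrial channels, SUR2A is the receptor of ventricular muscle, and Kir6.1 with SUR2B forms the channel of vascular smooth muscle and pericytes.

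These 4 genes, of 31982 named on the microarray, were chosen by name, and 6 probes carried one of the names. RNA came from hearts of CD1 wild-type mice, sorted by the surface level of integrin alpha-6 (ITGA6, CD49f) at embryonic day 15.5 (E15.5) and postnatal day 2 (P2). EL and EH are ERBB-2+ cardiomyocytes (CMs) of E15.5 with low and high ITGA6, and PL and PH are P2 CMs with low and high ITGA6 after magnetic removal of non-myocytes. Each group had 4 samples from independent experiments (samples 2, 3, 6 and 8 at E15.5, samples 2 to 5 at P2), each a pool of hearts, and each sample was hybridized to 1 of 16 single-color microarrays. As the stages differ in the way CMs were purified and all P2 microarrays lay on a slide of their own, differences between stages cannot be told apart from those of purification and slide. The sorted cells carried their defining markers: 11 of 11 pan-CM genes, among them *Tnnt2* and *Actc1*, had a signal well above background, by the flag of the scanner software, throughout all groups.

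In short, the fractions differed in both receptors and both pores. *Abcc8* was higher in ITGA6high CMs at both stages, by 2.64-fold at E15.5 and 4.26-fold at P2. *Abcc9* was 5.44-fold lower in PH than in PL and did not pass the test between EL and EH. *Kcnj8* was 3.46-fold higher in EH than in EL, and *Kcnj11* 1.67-fold higher in EH than in EL and 1.38-fold higher in PH than in PL. In limma with Benjamini-Hochberg adjustment, 3 of the 4 genes were thus higher in EH and 0 lower at an adjusted p of at most 0.05, where 4.27% of all 55681 probes were higher and 3.83% lower. In PH, 2 of the 4 genes were higher and 1 lower, where 6.15% of all probes were higher and 5.41% lower. Among the 22250 detected probes, whose flag was set on all 4 microarrays of some group, 9.77% were higher in EH and 14.1% in PH.

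**Figure D1:**
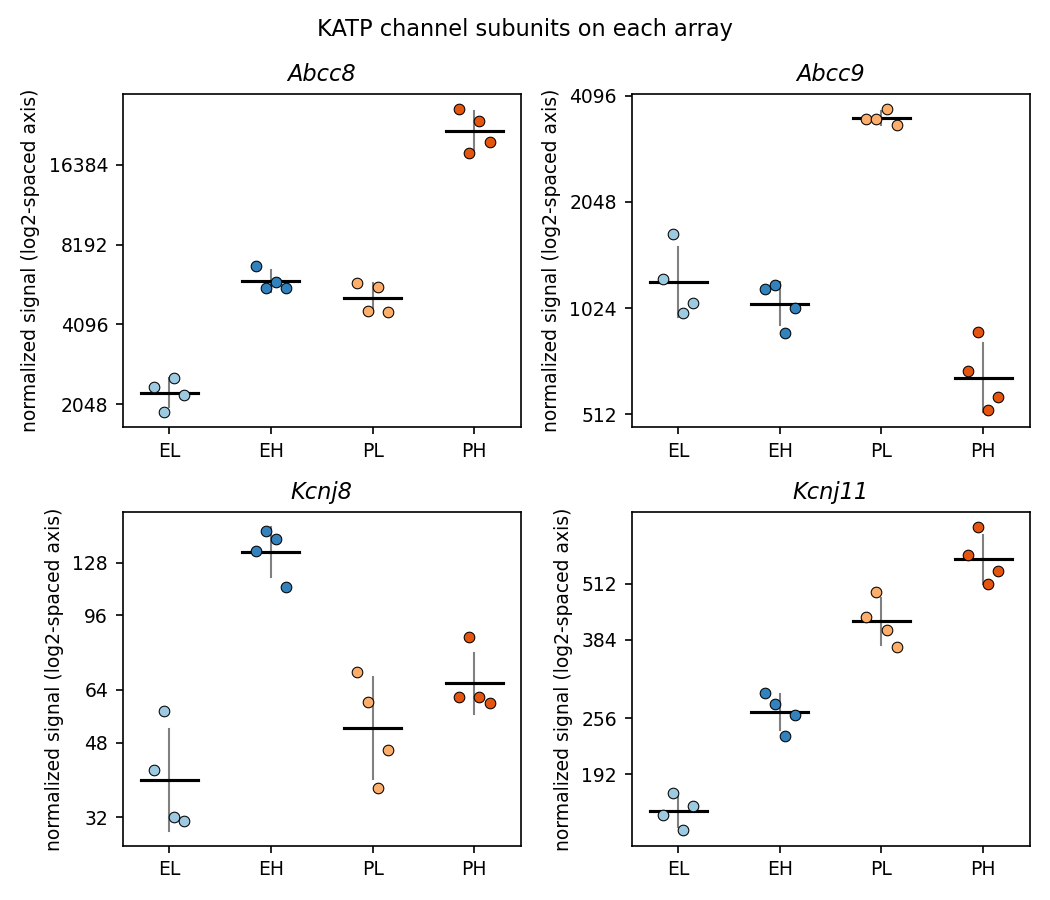
Normalized signal of the brightest probe of each gene, on axes spaced by log2, for the 4 groups. Points are single microarrays, black lines the mean and grey bars 1 SD of the log2 values. All 4 PH microarrays lie above all others for *Abcc8*, all 4 PL microarrays for *Abcc9* and all 4 EH microarrays for *Kcnj8*.

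The sulfonylurea receptors are described first. *Abcc8* was read by 2 probes on chromosome 7, at chr7:53359908-53359967 and chr7:53359921-53359980 (mm9, minus strand), which share 47 of their 60 bases and therefore are not independent measurements. *Abcc9* was read by 1 probe at chr6:142536920-142536979 (mm9, minus strand), whose annotation lists 4 RefSeq transcripts, so that SUR2A and SUR2B cannot be told apart. The first bases of these probes are given to show what was hybridized, with the stretch that both *Abcc8* probes share in capitals.
*Abcc8*, brighter probe: GCACCTCACTTGCTTGCCTAGTGTTTCGTA
*Abcc8*, other probe: agcgtgccgccccGCACCTCACTTGCTTGC
*Abcc9*: attgcgttgcttgggctacctccgatgaca

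For *Abcc8*, the normalized signal was 2383, 1916, 2575 and 2229 in samples 2, 3, 6 and 8 of EL and 6825, 5623, 5903 and 5605 in the same samples of EH. At P2 it was 5891, 4619, 5647 and 4573 in samples 2, 3, 4 and 5 of PL and 26663, 18098, 23924 and 19968 in those of PH. The fractions did not overlap at either stage, and every PH microarray exceeded every other by a wide margin. EH was higher than EL by a log2 fold-change of 1.40 ± 0.136 (SE; limma adjusted p = 1.59e-05) and PH higher than PL by 2.09 ± 0.136 (1.73e-07). The second probe gave 1.42 and 1.96. The order of the levels was EL, PL, EH and PH, in which the neighbours PL (5182 ± 684.7, SD, n = 4) and EH (5989 ± 573.6) overlapped and did not pass the test (limma adjusted p = 0.325). When signals were taken relative to the mean of the 11 pan-CM genes, PL was lower than EH (−1.16, adjusted p = 3.20e-06). These reference genes themselves differed between the fractions, as 1 was higher and 3 were lower in EH and 4 were lower in PH, among them *Myh6* (log2 fold-change 1.84 at E15.5) and *Pln* (−1.36 at E15.5 and −3.20 at P2), so that values on this scale move with them.

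Whether the *Abcc8* difference was larger at P2 than at E15.5 depended on the fit. The difference between both log2 fold-changes was 0.69 ± 0.192, with a limma adjusted p of 0.0814. With the sample number as a block at both stages, the difference was 0.69 with an adjusted p of 0.0171. EL and EH of the same number deviated together, whereas PL and PH were not taken as pairs. The adjusted p was 0.0352 when only detected probes were tested and 0.0445 with normexp background correction. It was 0.0449 without sample 3 of PH, whose *Abcc8* was the lowest of its group, and leaving out any other single microarray gave no pass. Nor did the difference pass after scaling every microarray by its 75th percentile (0.49, adjusted p = 0.349). The same held with the slide as a block (0.70, 0.104) and with dim signals raised to the lowest signal well above background (0.69, 0.116). Relative to pan-CM genes, a setting added for this difference after the data were seen, it was 1.09 (0.00305). The second probe gave 0.54 and an adjusted p of 0.219.

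For *Abcc9*, the normalized signal was 1239, 1657, 992 and 1058 in samples 2, 3, 6 and 8 of EL and 1157, 1186, 872.5 and 1025 in those of EH, and these ranges overlapped. In PL the 4 microarrays were close together at 3512, 3507, 3761 and 3379, whereas PH had the lowest mean of all groups, with 679.9, 873.9, 526.1 and 571.6. *Abcc9* thus fell from PL to PH without overlap. The log2 fold-change was −2.44 ± 0.175 for PH over PL (limma adjusted p = 4.21e-07) and −0.20 ± 0.175 for EH over EL (0.634). The difference between the stages was −2.24 ± 0.248 and passed the test (limma adjusted p = 1.86e-04). For this difference, 1.81% of all probes passed with a positive and 1.35% with a negative sign. Of the 22250 detected probes, 182, itself included, had a log2 fold-change of PH over PL as low as that of *Abcc9* or lower. The order of the levels was PH, EH, EL and PL, in which EH and EL did not pass the test and PH and EH did (limma adjusted p = 0.0126), although the highest PH value (873.9) lay above the lowest EH value (872.5), so that the groups overlapped.

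Set against the limit of at least 3-fold that the study's methods added to the test, *Abcc8* and *Abcc9* passed at P2, where 1.73% of all probes passed as higher and 0.916% as lower. At E15.5 *Kcnj8* alone of the 4 genes did, where 1.17% passed as higher, and with normexp background correction its log2 fold-change was 0.99, which is below this limit.

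**Figure D2:**
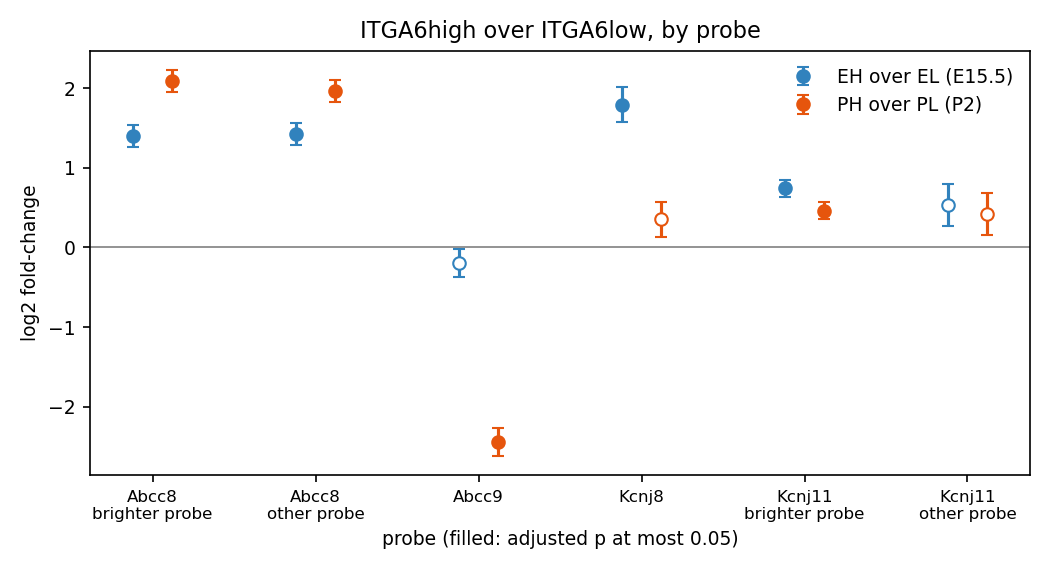
Log2 fold-change of ITGA6high over ITGA6low for each of the 6 probes, at E15.5 (blue) and P2 (orange), with bars of 1 SE from limma; filled points passed at an adjusted p of at most 0.05. Both *Abcc8* probes lie above 0 at both stages, and *Abcc9* lies at −2.44 at P2 and at −0.20 at E15.5.

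The balance of both receptors was read within each microarray as the signal ratio of *Abcc8* to *Abcc9*. Probes differ in how strongly they bind, so that only differences of this ratio between groups can be read, not its size. The log2 ratio was 0.94, 0.21, 1.38 and 1.07 in samples 2, 3, 6 and 8 of EL and 2.56, 2.25, 2.76 and 2.45 in those of EH. In PL it was 0.75, 0.40, 0.59 and 0.44 and in PH 5.29, 4.37, 5.51 and 5.13, in samples 2 to 5. No PL or EL microarray reached the lowest value of EH, and PH stood above all others. The ratio was 3.04-fold higher in EH than in EL and 23.2-fold higher in PH than in PL. A two-sided exact permutation test of 4 against 4 microarrays gave p = 0.0286 for each, the smallest value that this test allows. The test did not pair samples of the same number. Within the ITGA6low fraction, the ratio of PL and of EL overlapped and differed by −0.36 on the log2 scale (exact p = 0.229), while the signals of *Abcc8* and *Abcc9* were both higher in PL. Within the ITGA6high fraction it was 5.94-fold higher in PH than in EH (exact p = 0.0286). Over the 10 comparisons made of this and the pore ratio, each exact p of 0.0286 became 0.0357 by Benjamini-Hochberg adjustment. The lowest ratio of each group was that of its sample 3.

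**Figure D3:**
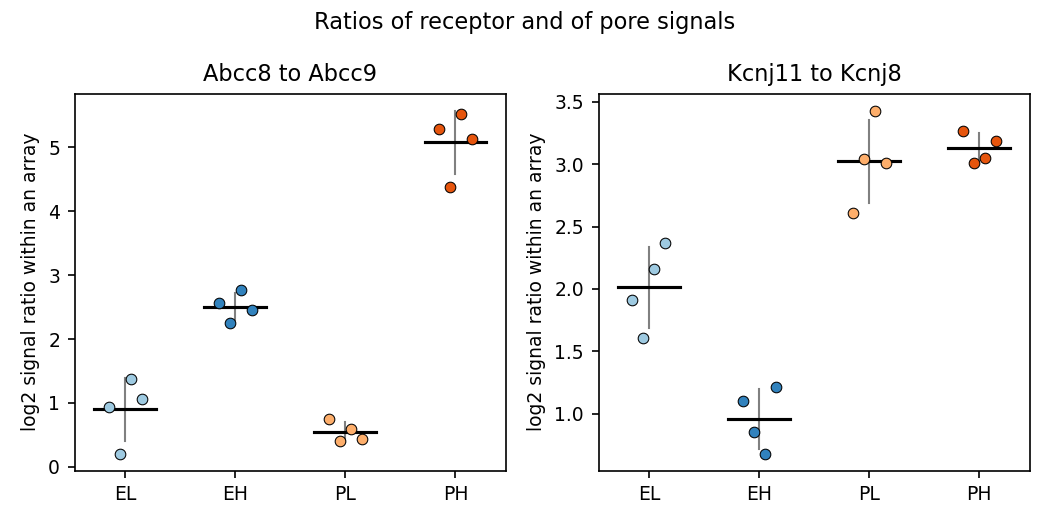
Log2 ratio of normalized signals within each microarray, for the receptors *Abcc8* to *Abcc9* (left) and the pores *Kcnj11* to *Kcnj8* (right), with the mean (line) and 1 SD (bar) of 4 microarrays. The receptor ratio of PH lies between 4.37 and 5.51, and that of PL between 0.40 and 0.75.

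Among the pore subunits, *Kcnj11* was read by 2 probes that start 976 bases apart, at chr7:53353119-53353178 and chr7:53354095-53354154 (mm9, minus strand). The second is printed whole, because 1 reading frame runs through its 60 bases as 20 codons and closes with a stop codon (in capitals), so that it reads the end of the coding sequence, while the first lies further towards the 3′ end. *Kcnj8* was read by 1 probe at chr6:142513487-142513546 (mm9, minus strand), and its first bases are shown with those of the brighter *Kcnj11* probe.
*Kcnj11*, other probe: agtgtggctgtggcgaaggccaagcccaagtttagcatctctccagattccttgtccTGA
*Kcnj11*, brighter probe: agaaaaagaaatattgggaagttcagcctg
*Kcnj8*: cacgggtcatcatgaatatgttcaaatcta

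For *Kcnj11*, which encodes the pore of both cardiac and beta cell channels, the brighter probe gave 155.5, 173.9, 143.7 and 162.7 in samples 2, 3, 6 and 8 of EL and 292.0, 275.1, 233.7 and 260.4 in those of EH. At P2 it gave 430.4, 491.1, 404.1 and 369.7 in samples 2 to 5 of PL and 592.7, 684.6, 511.3 and 545.1 in those of PH. The groups did not overlap and stood in the order EL, EH, PL and PH, and each neighbouring pair passed the test. Relative to pan-CM genes, PL over EH reversed (−0.28, adjusted p = 0.0388). The log2 fold-change was 0.74 ± 0.11 for EH over EL (limma adjusted p = 6.32e-04), 0.67 ± 0.11 for PL over EH (3.95e-04) and 0.46 ± 0.11 for PH over PL (0.0129). Its fraction difference at E15.5 and P2 differed by −0.28 ± 0.156, which did not pass (adjusted p = 0.552). On the second slide of E15.5, which held 1 EH and 2 EL microarrays, EH over EL was 0.56 and missed the threshold (adjusted p = 0.276), with the single EH microarray assumed to vary like the other groups.

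The other *Kcnj11* probe was near the detection limit, with 0 of 4 microarrays well above background in EL and 4 of 4 in each other group. Its signal was 13.0 to 20.3 in EL against 16.6 to 33.0 in EH, and 35.7 to 68.0 in PL against 53.3 to 89.9 in PH, so that the fractions overlapped at both stages. Neither fraction difference passed the test, with fitted folds of 1.44 for EH over EL (limma adjusted p = 0.321) and 1.34 for PH over PL (0.45). Between the stages, the fitted fold was 2.95 for PL over EL (limma adjusted p = 5.57e-04) and 2.74 for PH over EH (0.00117), of which the former rests on dim EL signals and is no bound. The fraction differences of *Kcnj11* therefore rest on 1 probe, and its stage differences were seen with both. With the mean of both probes, PH over PL missed the threshold (adjusted p = 0.0716).

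For *Kcnj8*, the normalized signal was 41.4, 56.9, 32.1 and 31.4 in samples 2, 3, 6 and 8 of EL and 136.6, 152.1, 145.6 and 112.2 in those of EH. In PL it was 70.5, 59.9, 37.5 and 46.0 and in PH 61.6, 85.2, 61.6 and 59.6, in samples 2 to 5. EH stood apart from all other groups, while PL and PH overlapped. The log2 fold-change was 1.79 ± 0.221 for EH over EL (limma adjusted p = 1.26e-04) and 0.35 ± 0.221 for PH over PL (0.467), and the difference between both was −1.44 ± 0.313 (0.0216). Within the slides that held the E15.5 samples, this difference was −1.53 on the first (EL 2 and 8, EH 2, 3 and 8; adjusted p = 0.0582) and −1.42 on the second (EL 3 and 6, EH 6; 0.283), where EH over EL was 1.77 (0.0677) with a single EH microarray. With normexp, EH over EL was 0.99 and the difference between the stages −0.76, both past the test. The order of the levels was EL, PL, PH and EH, in which only PH and EH, of the neighbours, passed the test (limma adjusted p = 0.00422).

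The ratio of the pore signals, *Kcnj11* to *Kcnj8*, moved against that of the receptors at E15.5. Its log2 value was 1.91, 1.61, 2.16 and 2.37 in samples 2, 3, 6 and 8 of EL and 1.10, 0.85, 0.68 and 1.21 in those of EH. EH was lower than EL by 2.07-fold without overlap (two-sided exact permutation test, p = 0.0286); the log2 difference was −1.05, and −0.42 with normexp. At P2, PL (3.02 ± 0.335, SD, n = 4) and PH (3.13 ± 0.121) overlapped and differed by 0.11 (exact p = 0.571).

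The genes of each receptor and pore lie side by side in the genome, *Abcc8* beside *Kcnj11* on chromosome 7 and *Abcc9* beside *Kcnj8* on chromosome 6, as adjacent protein-coding genes of the RefSeq annotation of GRCm38.p6. Over the 16 microarrays, the log2 signals of *Abcc8* and *Kcnj11* had a Pearson r of 0.856 and those of *Abcc9* and *Kcnj8* of −0.226. All 16 points share the 4 groups, so that these values describe the group pattern and carry no test. In PL, *Abcc9* was 5.44-fold higher than in PH, while *Kcnj8*, its neighbour, gave 53.5 ± 14.6 in PL and 67.0 ± 12.2 in PH.

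Between the stages, 3 of the 4 genes were higher in PL than in EL, and *Kcnj8* did not pass. Of all probes 9.7% were higher in PL, and of detected probes 21.3%. The log2 fold-change was 1.19 for *Abcc8*, 1.55 for *Abcc9* and 1.41 for *Kcnj11* (limma adjusted p = 2.19e-05, 1.98e-05 and 7.11e-07), with 4 against 4 microarrays that did not overlap. In the ITGA6high fraction, *Abcc8* (1.88) and *Kcnj11* (1.13) were higher in PH than in EH and *Abcc9* (−0.70) and *Kcnj8* (−1.03) lower. Of all probes, 9.12% were higher in PH and 8.37% lower, and of detected probes 19.7% and 18.9%. *Abcc9* thus moved in opposite directions with stage in the ITGA6low and ITGA6high fractions. Relative to the mean of the 11 pan-CM genes, which shifts the median log2 fold-change of all probes to −0.905 for PL over EL, *Abcc8* was at 0.27 (adjusted p = 0.0891), *Abcc9* was higher in PL by 0.63 and *Kcnj11* by 0.49, and the log2 fold-change of *Kcnj8* was −0.51 (0.0429) in place of 0.41 (0.272). This scaling also turned the count of probes past the test for PL over EL from 5400 higher and 5594 lower to 968 and 39976, and that for PH over EH from 5079 and 4661 to 1604 and 25147. For PH over PL it turned 3423 higher and 3013 lower into 21959 and 1154, and *Kcnj8* then was higher in PH (log2 fold-change 0.78, adjusted p = 0.00949).

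The members of 4 lists of related genes show which other channel genes moved beside the KATP subunits. Of 13 other inward rectifier genes, EH had 3 higher and 1 lower against EL, and PH had 2 higher and 1 lower against PL, with a median log2 fold-change of 0.20 and 0.16 (−0.02 and −0.01 over all probes). Of all probes, 4.27% were higher and 3.83% lower in EH, and 6.15% higher and 5.41% lower in PH; of detected probes, 9.77%, 8.93%, 14.1% and 12.1%. *Kcnj3* and *Kcnj5*, the subunits of the acetylcholine-gated atrial channel, were higher in ITGA6high CMs at both stages. *Kcnj3* gave 12.3 ± 8.45 in EL, where 1 of 4 microarrays was well above background, and 174.2 ± 20.9 in EH (limma adjusted p = 1.33e-05). The log2 fold-change, 4.06, rests on these dim values and was 1.61 with normexp. *Kcnj3* was at least 23.4-fold higher in PH (460.2 ± 59.0) than in PL (15.5 ± 6.37, not well above background). *Kcnj5* had a log2 fold-change of 1.71 and 1.89 (limma adjusted p = 3.37e-07 and 3.89e-08). *Kcnj4*, which encodes the classical inward rectifier Kir2.3, ran the other way, from 663.3 ± 105.6 in EL to 141.6 ± 35.8 in EH (−2.26, 3.30e-04), and it was at least 7.35-fold lower in PH, where it was not well above background, than in PL. *Kcnj12* (Kir2.2), named because it completes the count, passed at E15.5 with a log2 fold-change of 0.44 (limma adjusted p = 0.00583) and gave 0.05 at P2 (0.908). Of the 13 genes, 4 were detected, and *Kcnj1*, *Kcnj6*, *Kcnj10*, *Kcnj14* and *Kcnj16* had the flag on no microarray.

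**Figure D4:**
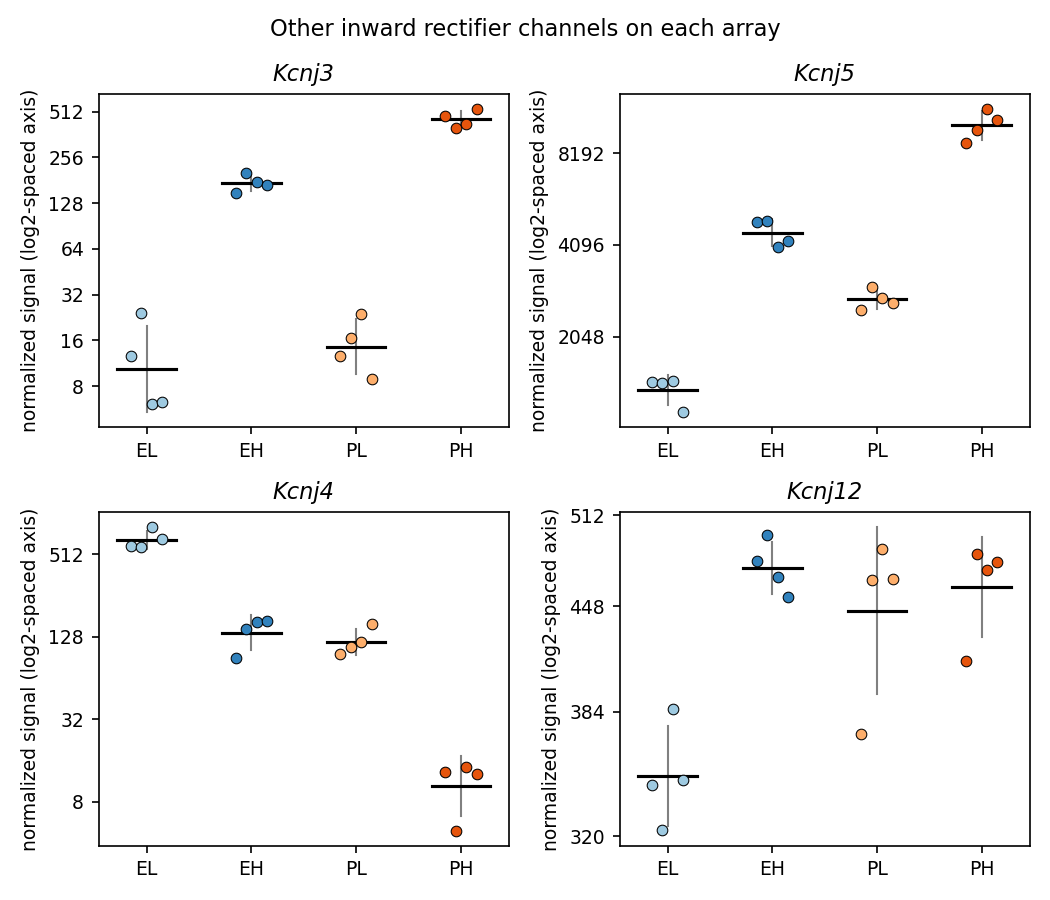
Normalized signal of the 4 other inward rectifier genes that passed a fraction test, on axes spaced by log2, with single microarrays (points), the mean (line) and 1 SD of the log2 values (bar). *Kcnj3* and *Kcnj5* stand higher in both ITGA6high groups, and *Kcnj4* stands lower.

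Of 9 other ABCC transporter genes, the family of the receptors, 0 passed for EH over EL in limma (an adjusted p of 0.515 or more; 0 had an unadjusted p under 0.05, and 0 passed the methods' test of variance analysis and Tukey's test) and 1, *Abcc1*, was lower in PH than in PL, where 5.41% of all probes were lower, so that neither count says anything particular about this family. *Abcc1* was well above background in PL alone, on 3 of 4 microarrays (46.9 ± 27.3), and was at least 2.43-fold lower in PH. *Abcc5*, the brightest of the 9, gave 775.9 ± 57.1 in EL against 678.6 ± 45.1 in EH, and 529.1 ± 89.5 in PL and 570.4 ± 209.5 in PH.

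Of 18 genes of energy metabolism, which set the nucleotides and glycolytic flux that the channels sense, EH had 1 higher and 6 lower against EL, and PH had 1 higher and 5 lower against PL; at P2, 10 passed in all after scaling every microarray by its 75th percentile. All 18 were detected, and of all detected probes 9.77% were higher and 8.93% lower in EH, and 14.1% higher and 12.1% lower in PH. The list's median log2 fold-change was −0.25 and −0.22. *Tpi1*, a glycolytic enzyme, was lower in ITGA6high CMs at both stages (−0.35 and −0.31; limma adjusted p = 0.00458 and 0.00806). Among the creatine kinases, which buffer ATP, mitochondrial *Ckmt2* rose from 518.6 ± 60.6 in EL to 747.7 ± 96.5 in EH and fell from 8103 ± 1137 in PL to 3659.7 ± 494.7 in PH. *Ckb*, the brain-type enzyme, went the other way (−0.56 at E15.5 and 0.42 at P2). The difference between the stages passed for both (limma adjusted p = 2.28e-04 and 0.00744) and for the adenylate kinase *Ak3* (0.45, 0.018). With the 75th percentile scaling, *Ckmt2* at E15.5 (0.46), *Ckb* at P2 (0.24) and the stage difference of *Ak3* (0.44) no longer passed, and relative to pan-CM genes *Ckb* at E15.5 missed the threshold (−0.52, adjusted p = 0.0551) and *Tpi1* turned to 0.13 at P2.

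Of 18 genes of channel trafficking, anchoring and signaling, EH had 3 higher and 0 lower against EL (5 had an unadjusted p under 0.05), and PH had 5 higher and 1 lower against PL, with a median log2 fold-change of 0.08 and 0.21; 17 were detected, and the shares of all detected probes were 9.77% higher in EH, and 14.1% higher and 12.1% lower in PH. *Rapgef3*, the cAMP sensor EPAC1, was higher in ITGA6high CMs by 1.83 at E15.5 and 2.94 at P2 (limma adjusted p = 2.29e-06 and 1.16e-08). *Prkar1a*, a regulatory subunit of protein kinase A, was higher by 0.39 and 0.94, and *Copb1*, a coat protein of transport vesicles, by 0.32 and 0.50. Of these, *Rapgef3* and *Prkar1a* also differed between the stages (1.11 and 0.55). With the 75th percentile scaling, *Copb1* (0.25) and *Prkar1a* (0.23) at E15.5 and the stage difference of *Prkar1a* (0.47) no longer passed.

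The genes whose signal was most like that of each subunit over the 16 microarrays, at most 5 for each, were found by Pearson r among 17545 detected probes with a gene name, as a description. For *Abcc8* they were *Pdlim4*, *Scn10a*, *Phkg1*, *Smox* and *Pbxip1* (r = 0.99 to 0.98), for *Abcc9* *N6amt2*, *Efnb3*, *Lrtm1*, *Setd8* and *Impa2* (0.94 to 0.934), for *Kcnj11* they included *Art3*, *Dhrs11* and *Nt5e* (0.975 to 0.972), and for *Kcnj8* *Acvr1c*, *Hspb3*, *Maged2*, *Cyr61* and *Lifr* (0.906 to 0.891).

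As the RNA was taken in bulk, fewer cells of a type and less RNA per cell cannot be told apart, and marker genes of other cells are given beside the subunits. The group means of *Abcc8* differed in the same comparisons as the chamber markers at both stages and those of *Abcc9* at P2, while at E15.5 *Abcc9* did not pass the test. The counts of the marker lists stand beside 9.77% higher and 8.93% lower of all detected probes in EH, and 14.1% and 12.1% in PH. Of 11 atrial CM genes, 9 were higher in EH than in EL and 10 in PH than in PL, and of 8 ventricular CM genes, 6 were lower and 2 higher in EH and 8 lower in PH; these lists hold genes that the study chose from the same samples. The ventricular genes higher in EH, named to complete the count, were *Irx3* (log2 fold-change 0.91, limma adjusted p = 0.0147) and *Irx5* (adjusted p = 0.0415), which was not well above background in EL. The summed signal of the atrial list, led by *Myl4*, was 170181 to 195186 in EL against 725607 to 739546 in EH, and 20129 to 90724 in PL against 914065 to 1030053 in PH. That of the ventricular list, led by *Myl3*, was 784691 to 805619 in EL against 234215 to 373553 in EH, and 653857 to 691254 in PL against 84322 to 119789.9 in PH. *Myl3* had the same normalized signal, 324175.3, on every EL and PL microarray, a value fixed by the quantile normalization. The narrow ranges of this sum in EL and PL are therefore partly set by the normalization. The part of chamber composition in the receptor differences was not tested.

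The group means of *Kcnj8*, which is known from vessels, and of most endothelial markers were both higher in EH than in EL. Of 10 endothelial genes, 7 were higher in EH than in EL (9.77% of detected probes), with a median log2 fold-change of 3.28 for the list, and 0 passed for PH over PL in limma, where *Egfl7* had the lowest adjusted p (0.0506), the 1 unadjusted p under 0.05 and the 1 pass by the methods' test. Their summed signal, led by *Egfl7*, was 1974, 1986, 2264 and 2186 in samples 2, 3, 6 and 8 of EL and 5122, 4197, 11332 and 10880.1 in those of EH, and 825.4 to 2111 in PL and 1397 to 2191 in PH. *Cdh5*, *Tie1* and *Emcn*, which define endothelium, were well above background on 4 of 4 microarrays in EH and on 0 in each other group. *Kdr*, also an endothelial marker and named after its values were seen, carried the flag on all microarrays of each group; it gave 1036.8 in EL against 834.2 in EH, a log2 fold-change of −0.34 that did not pass (limma adjusted p = 0.802). Within EH the sum and *Kcnj8* did not share their order: by rising sum, samples 3, 2, 8 and 6 had a *Kcnj8* signal of 152.1, 136.6, 112.2 and 145.6. The part of endothelial RNA in the *Kcnj8* difference was not tested.

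Of 12 mural genes (pericytes and smooth muscle), EH had 4 higher (*Pdgfrb*, *Rgs5*, *Higd1b* and *Tagln*) and 1 lower (*Cspg4*), and PH had 3 higher (*Tagln*, *Cnn1* and *Mcam*) and 2 lower (*Cspg4* and *Acta2*), beside detected shares of 9.77% higher and 8.93% lower in EH, and 14.1% and 12.1% in PH. Their sum, led by *Acta2*, which embryonic CMs also express, was 59843 to 66815 in EL against 46604 to 58068 in EH, and 19863 to 44019.9 in PL against 11279 to 16783 in PH. *Rgs5* was well above background in EH only, at 34.8 ± 8.81, *Pdgfrb* in EL and EH, and *Myh11* and *Vtn* on no microarray. At P2, where *Abcc9* differed 5.44-fold, *Pdgfrb*, *Rgs5*, *Notch3*, *Anpep*, *Myh11* and *Vtn* were not well above background in PL or PH, while *Cspg4* (log2 fold-change −1.60) and *Acta2* (−2.79) were and fell from PL to PH. The part of mural RNA in the differences of *Abcc9* and *Kcnj8* was not tested.

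Other lists gave smaller counts, to be read against the same shares of detected probes, 9.77% higher and 8.93% lower in EH and 14.1% and 12.1% in PH. Of the genes named as higher in EH, *Shox2* was well above background there on 1 of 4 microarrays, *Lyz2* on 2, and *Chga* and *Hbb-bh1* on 3. Of 12 genes of neural and endocrine cells, which are known to express *Abcc8*, *Dbh* and *Chga* were higher in EH and *Dbh* in PH, while *Iapp* and *Sox10* were well above background on no microarray and the sum, led by *Dbh*, was 436.4 to 485.1 in EL against 557.9 to 762.6 in EH, and 919.4 to 1766 in PL against 2539 to 2987 in PH. Of 7 leukocyte genes, *Cd68* and *Lyz2* were higher in EH and 0 passed in PH (limma adjusted p of 0.379 or more; 0 unadjusted, 0 by the methods' test). Of 8 fibroblast genes, 0 passed in EH (limma adjusted p of 0.101 or more; 3 unadjusted, 0 by the methods' test) and *Postn* was lower in PH. Of 7 erythroid genes, *Hbb-bh1* and *Epor* were higher in EH and *Epor* in PH, and of 7 epicardial genes *Tbx18* was lower in EH and *Wt1* and *Krt19* were higher in PH. Of 6 pacemaker genes, *Shox2*, *Tbx3* and *Vsnl1* were higher in EH, *Vsnl1* was higher and *Tbx3* lower in PH, and *Hcn4* and *Isl1* were well above background on no microarray. The part of these cells in the differences of the subunits was not tested.

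**Figure D5:**
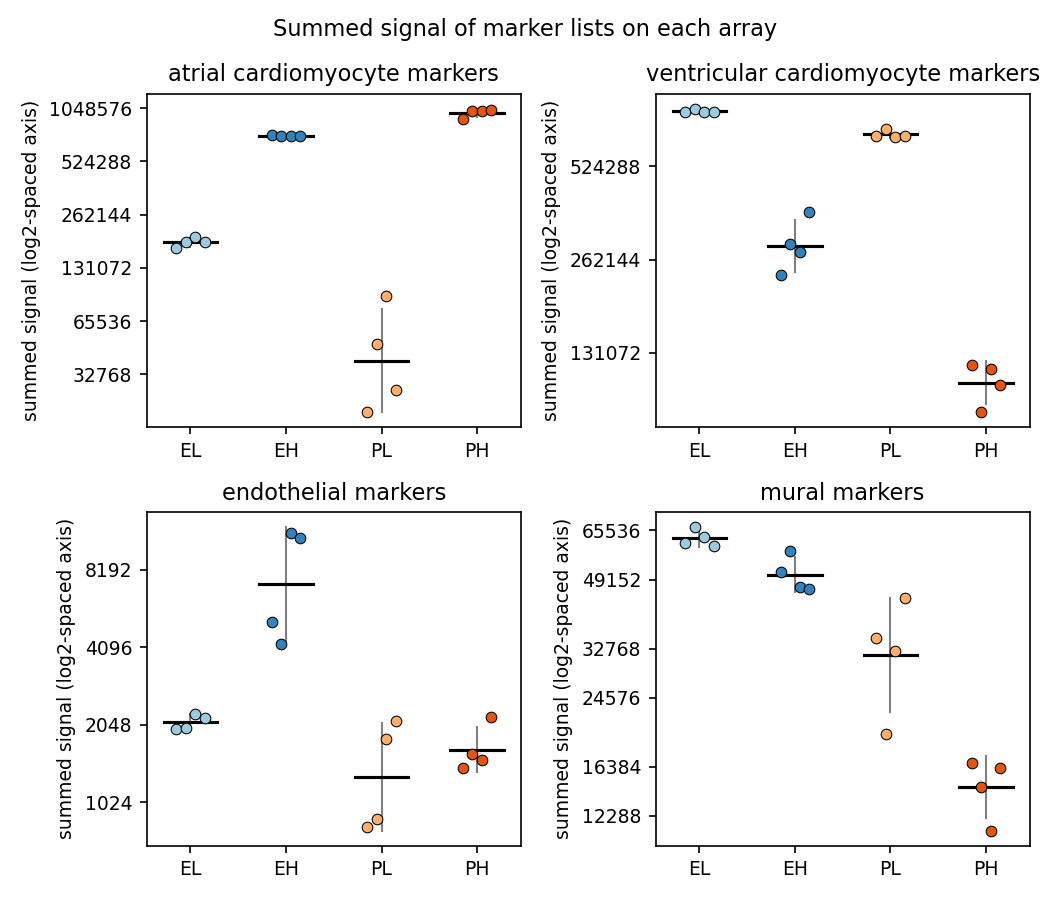
Summed normalized signal of 4 marker lists on each microarray, on axes spaced by log2, with the mean (line) and 1 SD of the log2 values (bar). The endothelial sum of EH, 4197 to 11332, lies above all other groups, and the atrial sums of EH and PH lie above those of EL and PL.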

How the data were processed

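The microarrays were Agilent 8x60K single-color arrays, read with Agilent Feature Extraction 10.7.3.1 per the file headers. The authors deposited spot intensity values, in which background was already subtracted, and 1 table of log2 values after their quantile normalization. Here the deposited processed intensity of 59305 non-control spots was averaged to 55681 probes, quantile normalized and transformed to log2, as in the study's methods. Signals are 2 to the power of these values. Between 35.7% and 46.5% of probes per array were well above background by the software's flag, which with 4 arrays per group limits the precision. No subunit probe was saturated.

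Group means were fitted to all 16 arrays with limma 3.58.1 in R 4.3.3, and p-values were adjusted (Benjamini-Hochberg) over all probes. Ratios were tested by two-sided exact permutation of 4 against 4 arrays, without pairing. Tables and figures were made in Python 3.11.15 with pandas 2.3.3, numpy 2.4.6, scipy 1.17.1 and matplotlib 3.10.9. The fit was tested on simulated data.

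The subunits and the gene lists were chosen with earlier results of these data known. Of several probes for a gene, that with the highest mean signal was used. From each list of related genes, those that passed in the same direction at both stages, or whose difference between the stages passed, were named, up to 5 with the largest mean change, and other genes were named to complete small counts after their values were seen. Some genes of the lists and of the most similar profiles are not reported here. A group with 0 of 4 arrays well above background gave a lower bound of the fold, computed against the higher of the probe's own signal and the lowest signal well above background of each array; for the dimmer *Kcnj11* probe this equals the fitted fold, which is given instead.

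Samples with the same number were compared by the correlation of their deviations from the group means. EL and EH gave r = 0.255, 0.189, 0.45 and 0.379, all above the limit of 0.1, and were taken as pairs. P2 gave 0.375, 0.176, −0.0305 and 0.542 and was not. The pairs entered only the alternative with the sample number as a block, which blocked both stages. The main fit and the exact tests treated all arrays as unpaired. Alternatives were scaling to the 75th percentile, normexp background correction (offset 50), the authors' log2 values, detected probes only, dim signals raised to the floor, slide or sample number as a block, each E15.5 slide alone, the methods' test (analysis of variance with Tukey's test), leaving out each array, the other probe or the mean over probes, and pan-CM scaling. Probe positions are those of the files (mm9); exon structure was not analysed here.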

Additional observations from a re-analysis of the deposited data

Results flagged for a closer look

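The outlying arrays were sought in 76 groups of 4, of which chance alone marks about 1 in 20. Sample 3 of PH lay apart from the other 3 for *Kcnj8*, with a normalized signal of 85.2, and for *Kcnj4*, with 4.95, where *Kcnj4* was not well above background. Sample 8 of EL lay apart for *Kcnj5* at 1159 and sample 5 of PL for *Ckmt2* at 6419.

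The fraction difference was not the same at both stages, by limma's test of the difference between both log2 fold-changes, for *Abcc9* (−2.24) and *Kcnj8* (−1.44) among the subunits. The same held for *Ak3* (0.45), *Ckb* (0.97), *Ckmt2* (−1.67), *Rapgef3* (1.11) and *Prkar1a* (0.55) among the related genes. *Abcc1* also met this criterion (−3.36), but it was not well above background in EL, EH or PH, so that the size cannot be read, and with normexp it missed the threshold (−0.60, adjusted p = 0.0526).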

How the results depend on the processing

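Of 392 alternative values for the log2 fold-changes of the 4 genes, 377 kept their side of the threshold and, where past it, their direction, as did all 66 for the ratios; the exceptions follow, and unless stated their cause was not tested. The difference between the stages for *Abcc8*, 0.69, passed the test with normexp (0.68), among detected probes (0.69), with the replicate block (0.69), and without sample 3 of PH (0.78); leaving out single arrays gave 0.60 to 0.78. Relative to pan-CM genes, chosen for this difference after seeing the data, it was 1.09 and passed, and the reference genes differ between the fractions. The block changed no other call of the subunits at E15.5 or P2. With fewer E15.5 arrays, *Kcnj8* in EH against EL (1.77) and *Kcnj11* (0.56) missed the threshold on the second slide (1 EH array), and so did the difference between the stages for *Kcnj8* on the first (−1.53) and second (−1.42). The other *Kcnj11* probe gave 0.53 in EH and 0.42 in PH, and the mean of both probes 0.44 in PH, none past the test. *Kcnj11* in PH against PL (0.46) also missed the threshold (adjusted p = 0.0622) when only the E15.5 arrays of the second slide shared the fit, which leaves fewer arrays to estimate the spread; settings that drop only arrays of the other stage are not among the 392. Relative to pan-CM genes, *Abcc8* in PL against EL missed the threshold (0.27), and *Kcnj8* in PH against PL passed it (0.78). *Kcnj8* in PL against EL reversed (−0.51). The comparison of PL against EH is not among the 392. On the same scale, it reversed for *Kcnj11* (−0.28) and passed the test for *Abcc8* (−1.16). Also on this scale, *Abcc9* (0.63) and *Kcnj11* (0.49) in PL against EL kept their call at a smaller size. So did, with normexp, *Kcnj8* in EH against EL (0.99) and its difference between the stages (−0.76), and the pore ratio was lower in EH by a log2 difference of −0.42. The number of probes past the test was 4509 for EH against EL (2275 and 2806 on the first and second slide), 6436 for PH against PL (11021 with normexp, 23113 relative to pan-CM genes), 1756 for the difference between the stages (946 on the first slide, 13427 relative to pan-CM genes, as 12860 higher and 567 lower), 10994 for PL against EL (40944 relative to pan-CM genes) and 9740 for PH against EH (36535 with dim signals raised to the floor, as 31704 higher and 4831 lower, and 26751 relative to pan-CM genes). Scaling to the 75th percentile moved the median of all probes to −0.18 for EH against EL, −0.14 for PH against PL and 0.19 for both stage comparisons. Signals near background, as of the second *Kcnj11* probe, limit what can be read, and slide and stage cannot be told apart.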
